A study of Mus musculus with 249 samples.

Results

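The 3 large clusters of olfactory receptor genes were examined in mouse embryonic stem cells with genome architecture mapping (GAM), which records which stretches of DNA lie in the same thin slice of a nucleus. The clusters were taken by position in the mm9 assembly, as every 40 kb window in chr2:85000001-90000000, chr7:109600001-115800000 and chr9:37400001-40000000. They hold 125, 155 and 65 windows, in all 345 of the 68162 windows measured. The 5 Mb on either side of each cluster, 750 windows in all, served as the background measured in the same libraries.

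Olfactory receptors are odorant-binding G protein-coupled receptors, and in mouse they form the largest gene family, spread in clusters over most chromosomes. Each sensory neuron of the nose uses a single allele of a single receptor gene, and the remaining receptor genes are kept in heterochromatin. In those neurons, clusters of different chromosomes are known to gather in the nucleus, a state in which the LIM-homeodomain protein Lhx2 and its partner Ldb1 take part. Embryonic stem cells come before this choice, and the receptor genes are generally silent in them. The comparisons below address how often the clusters were caught in slices of stem cell nuclei, whether they hold together and end as units, and whether they meet between chromosomes.

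The libraries came from 46C-ES cells of the labelled strain 129/Ola, a single established line with no untreated counterpart, and all share the same growth conditions, cryosections of 220 nm and, by their labels, 4 nuclear profiles per tube. The methods count cellular profiles as they are cut out, and not every one of these passes through the nucleus, so a tube can hold fewer nuclear slices than its label says. The labels place them in 11 experiments with 20 groups. The 7 experiments with several groups compared protocols: wga-reagent-volumes (protocol_a, 10 libraries, protocol_b, 11, protocol_c, 10), pk-volume-titration (1 and 2 µl of proteinase K, 5 and 6), freezing-after-incubation (frozen after incubation, 10, unfrozen, 11), early-freezing-test (late, 11, early, 12), wga-pcr-cycles-test (25, 23 and 20 cycles, with 3, 5 and 4), cresyl-violet-test (unstained, 10, stained, 16) and large-vs-small-kit (small, 12, large, 11). The other four hold 1 group each, namely full-collection-4np (54) and the unstained libraries of pi-staining-and-freezing (20), eosin-test (18) and sybrgold-test (10). A window counts as positive in a library when at least 4 reads mapped to it. The table holds no read counts, so the depth behind a call is unknown. A library was positive in 3.40% to 45.2% of all 68162 windows (61816 of them autosomal), with a median of 17.1%, and no pair of libraries was identical. Experiment, plate and protocol cannot be told apart between experiments. DNA calls give no expression, so the cell type could not be checked against marker genes.

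The clusters carry 563 of the 1251 genes called Olfr in the annotation used (GENCODE for NCBIM37, the mm9 assembly), which is 45%. Of these, 497 are annotated as protein-coding. The chromosome 2 cluster runs from Olfr987 to Olfr1270 with 262 Olfr genes and only 5 other protein-coding genes. The chromosome 7 cluster runs from Olfr543 to Olfr509 with 204 Olfr genes and is interrupted by 62 other protein-coding genes, among them the β-globin genes (Hbb) and a family of Trim genes, several of which encode antiviral ubiquitin ligases. The chromosome 9 cluster runs from Olfr151 to Olfr986 with 97 Olfr genes and 10 others. An Olfr gene overlapped 115 of 125, 93 of 155 and 57 of 65 windows, against 1.12% of all autosomal windows. The nearest genes outside the left edges are Aplnr, the apelin receptor, Stim1, the calcium sensor of the endoplasmic reticulum, and Nrgn, a calmodulin-binding neuronal protein. Outside the right edges lie Olfr1506, Olfr510 and Scn3b, a sodium channel subunit, so the chosen right limits of the chromosome 2 and chromosome 7 clusters leave 6 and 8 Olfr genes in the flank.

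The DNA of the clusters differs from that of their flanks. GC content averaged 37.1%, 40.1% and 37.9% in the windows of the chromosome 2, 7 and 9 clusters, against 39.4% to 46.1% in the 6 flanks and 41.9% over the autosomes. Repeated sequence was also more common. The share of a window's 31-mers that occur more than once on the same chromosome averaged 20.1%, 26.3% and 16.0% in the clusters, against 4.57% to 16.6% in the flanks.

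Gene starts show the contrast in base composition at the sequence level. The first Olfr gene of each cluster and the nearest gene outside its left edge are shown here, each from 270 bases before to 30 bases after the annotated start (mm9, on the strand of the gene, 5′ to 3′), with CpG dinucleotides in capitals.
Olfr987, chr2:85179423-85179722, minus strand: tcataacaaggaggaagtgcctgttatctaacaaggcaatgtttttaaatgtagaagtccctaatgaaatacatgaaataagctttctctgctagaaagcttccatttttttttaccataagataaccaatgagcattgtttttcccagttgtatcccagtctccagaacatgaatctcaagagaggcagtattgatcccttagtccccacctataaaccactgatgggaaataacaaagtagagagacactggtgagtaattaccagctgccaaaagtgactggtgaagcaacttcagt
Aplnr, chr2:84976247-84976546, plus strand: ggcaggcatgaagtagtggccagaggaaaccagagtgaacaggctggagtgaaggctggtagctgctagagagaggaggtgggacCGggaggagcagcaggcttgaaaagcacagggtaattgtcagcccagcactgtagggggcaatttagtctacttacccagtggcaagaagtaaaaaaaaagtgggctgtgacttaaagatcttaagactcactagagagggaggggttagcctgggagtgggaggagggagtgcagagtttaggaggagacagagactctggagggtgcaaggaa
Olfr543, chr7:109626387-109626686, minus strand: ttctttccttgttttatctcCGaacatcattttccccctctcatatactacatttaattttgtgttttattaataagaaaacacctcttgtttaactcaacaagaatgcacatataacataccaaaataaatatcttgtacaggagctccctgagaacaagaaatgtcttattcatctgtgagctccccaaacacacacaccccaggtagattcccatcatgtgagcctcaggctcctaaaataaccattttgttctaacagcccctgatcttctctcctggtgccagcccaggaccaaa
Stim1, chr7:109416068-109416367, plus strand: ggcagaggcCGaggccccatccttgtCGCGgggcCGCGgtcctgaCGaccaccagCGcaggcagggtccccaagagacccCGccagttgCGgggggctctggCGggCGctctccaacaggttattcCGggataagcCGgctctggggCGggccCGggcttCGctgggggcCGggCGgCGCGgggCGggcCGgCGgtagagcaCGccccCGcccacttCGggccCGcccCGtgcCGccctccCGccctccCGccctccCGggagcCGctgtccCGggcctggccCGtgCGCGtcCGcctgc
Olfr151, chr9:37538617-37538916, minus strand: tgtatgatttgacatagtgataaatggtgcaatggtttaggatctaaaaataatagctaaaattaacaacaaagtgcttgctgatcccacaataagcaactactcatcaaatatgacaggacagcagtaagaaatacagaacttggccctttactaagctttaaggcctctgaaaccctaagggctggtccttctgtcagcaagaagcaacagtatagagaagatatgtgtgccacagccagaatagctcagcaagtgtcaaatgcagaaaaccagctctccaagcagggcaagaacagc
Nrgn, chr9:37360301-37360600, minus strand: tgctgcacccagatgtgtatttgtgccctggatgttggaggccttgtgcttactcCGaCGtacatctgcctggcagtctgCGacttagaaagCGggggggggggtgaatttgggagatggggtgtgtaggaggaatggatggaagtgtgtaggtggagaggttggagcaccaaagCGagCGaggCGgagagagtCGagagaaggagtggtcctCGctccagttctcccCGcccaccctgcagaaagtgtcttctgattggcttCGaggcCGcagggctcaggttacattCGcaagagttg
The 3 receptor genes hold 0, 1 and 0 CpG dinucleotides, and Aplnr, Stim1 and Nrgn hold 1, 38 and 13. Over all 217, 186 and 94 protein-coding Olfr genes of the clusters, the median was 1 CpG in each cluster and the highest 7, 9 and 7. Of the 99, 128 and 115 protein-coding genes not called Olfr in the flanks, 58.6%, 59.4% and 53% held at least 10 CpG dinucleotides in the same 300 bases. No Olfr gene of the clusters did. The 5, 62 and 10 other protein-coding genes inside the clusters had medians of 3, 2 and 8 CpG, and 0%, 25.8% and 50% of them held at least 10, so low counts were not limited to receptor genes. The median GC content of these stretches was 31.3%, 35.5% and 35.3% for Olfr genes and 55.3%, 59.0% and 56.0% for the flank genes. Over 50% of the protein-coding Olfr models in each cluster begin at the start codon, so for those the stretch is the DNA just upstream of the coding sequence with its first 30 bases, and need not be the promoter.

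The clusters were caught somewhat less often than the DNA beside them. A library was positive in 17.8% ± 1.31 (SE over all libraries) of the windows of the chromosome 2 cluster, 17% ± 1.19 of those of chromosome 7 and 18.5% ± 1.46 of those of chromosome 9. The values spread widely over libraries. On chromosome 2 a library's share ran from 0% to 89.6% with a median of 10.4%, on chromosome 7 from 0% to 83.2% with a median of 9.68%, and on chromosome 9 from 0% to 96.9% with a median of 6.15%. No window was positive in 60, 42 and 71 libraries, while 28, 21 and 35 libraries held over 50% of the cluster. Only 1 library missed all 3 clusters, and 1 held over 50% of every one.

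Within libraries, the flanks of the chromosome 2 cluster were positive in 19.7% of windows, a difference of −1.97 percentage points (SE 0.924, Benjamini-Hochberg adjusted p = 0.0338, two-sided sign-flip permutation test). It was lower in 146 libraries and higher in 86. The chromosome 7 cluster was at 17% against 20.9% in its flanks, a difference of −3.86 points (SE 1.01, adjusted p = 0.00081), and was lower in 143 libraries and higher in 90. The chromosome 9 cluster was at 18.5% against 21.1%, a difference of −2.66 points (SE 1.24, adjusted p = 0.0338), and was lower in 160 libraries and higher in 89, or in 137 and 89 with 23 equal when a single flank window described next is left out. With only windows positive in at least 25 libraries, the differences were −2.20, −2.67 and −2.66 points on chromosomes 2, 7 and 9 (adjusted p = 0.0295, 0.0295 and 0.0324). That setting leaves out 11 windows of the chromosome 7 cluster and 0 of its flanks. With all windows, the median differences over libraries were smaller than the means, −1.60, −1.51 and −1.20 points on chromosomes 2, 7 and 9. Set against a single flank, the difference of means passed the test on the left of the chromosome 7 cluster (−5.39 points, adjusted p = 0.00012) and on the right of the chromosome 9 cluster (−3.63 points, adjusted p = 0.0396), and the other 4 comparisons did not pass. Against all autosomal windows, positive in 19.4% on average, the differences were −1.61, −2.38 and −0.895 points with adjusted p of 0.27, 0.111 and 0.508. That autosomal average counts the 3.52% of windows that were never positive, which lowers it. The clusters held 0, 2 and 0 such windows.

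GC content moved with these differences. After each window was set against autosomal windows of the same GC content, the differences were 0.149 points on chromosome 2 (adjusted p = 0.995), −1.91 points on chromosome 7 (adjusted p = 0.178) and −0.0076 points on chromosome 9 (adjusted p = 0.995), and none of the 3 calls was kept. The chromosome 2 and chromosome 9 calls were also near the threshold: each was lost when any of 7 of the 11 experiments was left out (on chromosome 2 all but pi-staining-and-freezing, pk-volume-titration, wga-pcr-cycles-test and large-vs-small-kit, on chromosome 9 all but pk-volume-titration, wga-pcr-cycles-test, cresyl-violet-test and large-vs-small-kit), whereas the chromosome 7 call held in all 11. A single window of the left flank of chromosome 9, chr9:35080001-35120000, was positive in 245 libraries. Without it the chromosome 9 difference was −2.35 points (adjusted p = 0.0589).

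**Figure D1:**
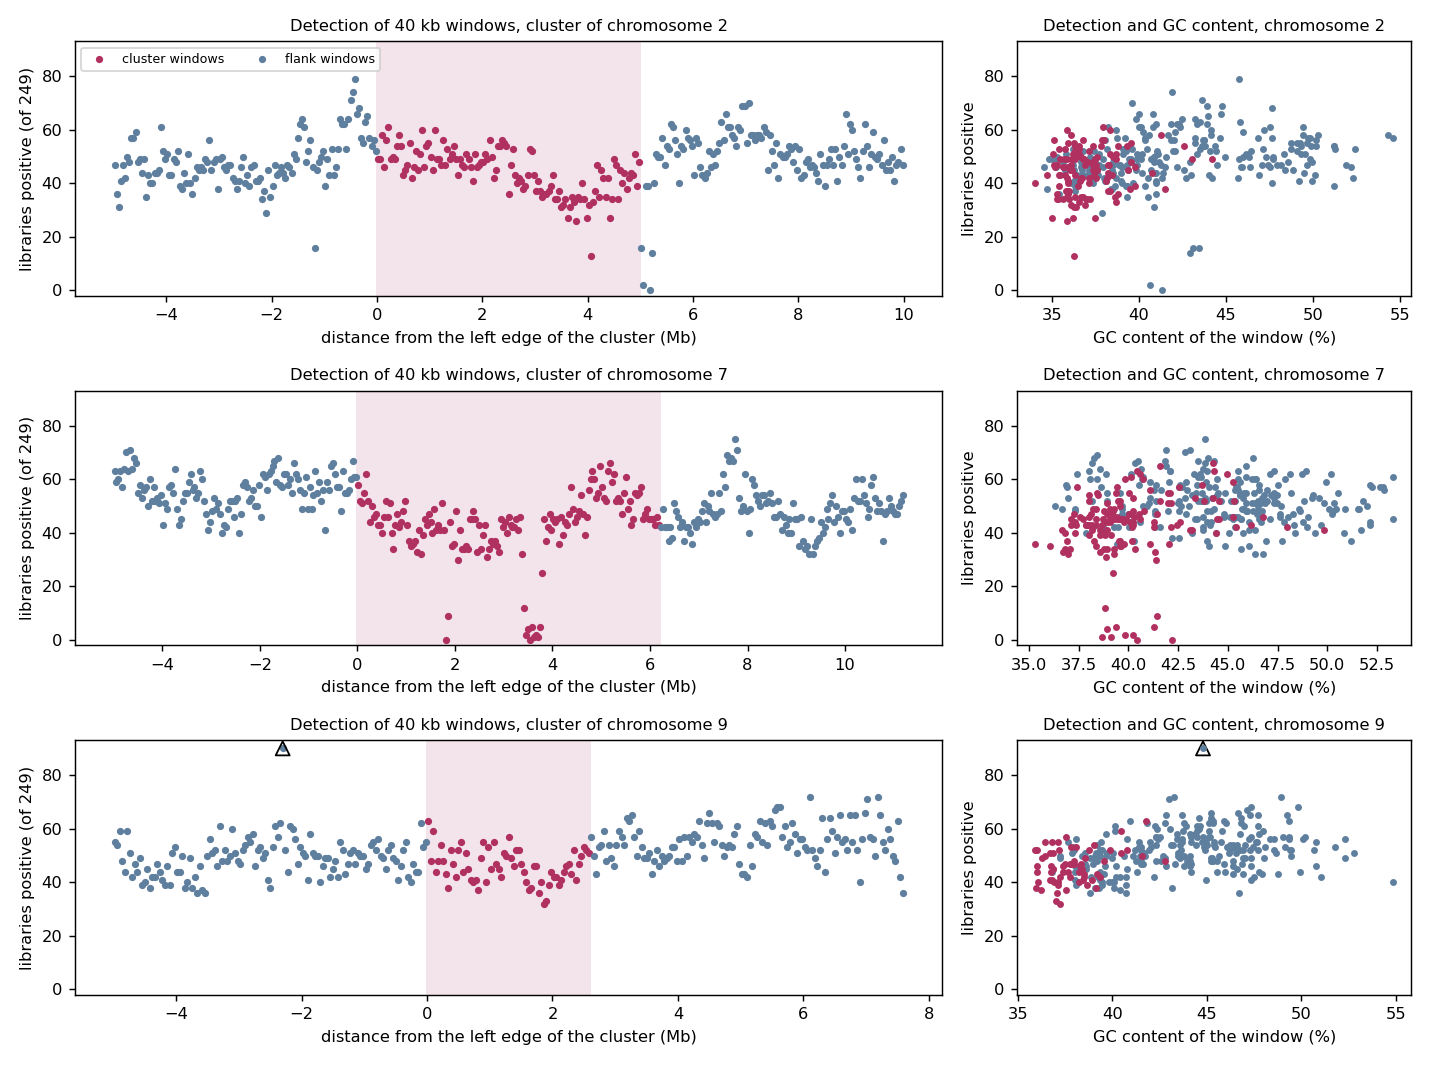
Left panels plot, for each 40 kb window, the number of libraries positive against the distance from the left edge of the cluster in Mb, with the cluster shaded and its windows in red, and right panels plot the same counts against the window's GC content in percent. Cluster windows sit at the low end of GC content, the chromosome 2 cluster dips in the fourth Mb, and the chromosome 7 cluster holds a gap of windows at 0 to 12 libraries (the flank window at 245 libraries on chromosome 9 is drawn at 90, inside a triangle).

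The direction was shared by most experiments. The chromosome 2 cluster lay below its flanks in 8 of 11 experiments, with experiment means from −8.12 points in early-freezing-test to 4.10 points in large-vs-small-kit. The chromosome 7 cluster was lower in 9 of 11, from −11.5 points in eosin-test to 2.15 points in wga-pcr-cycles-test. The chromosome 9 cluster was also lower in 9 of 11, from −6.83 points in eosin-test to 4.91 points in cresyl-violet-test. With each experiment's mean as 1 value (exact sign-flip permutation test over the 11 experiments), the difference was −1.51 points on chromosome 2 (adjusted p = 0.197), so that call was lost, and −3.66 on chromosome 7 and −3.00 on chromosome 9 (adjusted p = 0.0381 for both). No difference between experiments passed the test (permutation test of F, 1.21, 1.15 and 0.728 for chromosomes 2, 7 and 9, adjusted p = 0.486, 0.486 and 0.698). Between the arms of 1 experiment, the difference between all cluster windows and all flank windows, pooled over the 3 chromosomes, ranged from −5.97 points (protocol_b minus protocol_c) to 2.76 points (protocol_a minus protocol_b). In 0 of 11 such contrasts did the permutation test pass, with or without adjustment (lowest unadjusted p = 0.174). The pooled value gives the chromosomes other weights in the clusters than in the flanks. With the mean of the 3 differences in its place, an alternative chosen after seeing the data, the contrasts ranged from −8.36 to 4.18 points, again in 0 of 11 with an adjusted p past the threshold, and protocol_b minus protocol_c alone had an unadjusted p under 0.05 (−8.36 points, p = 0.0483, adjusted p = 0.531). The wide spread over libraries, an SD of 10.1 points for the mean of the 3 differences, leaves room for protocol differences of several points.

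**Figure D2:**
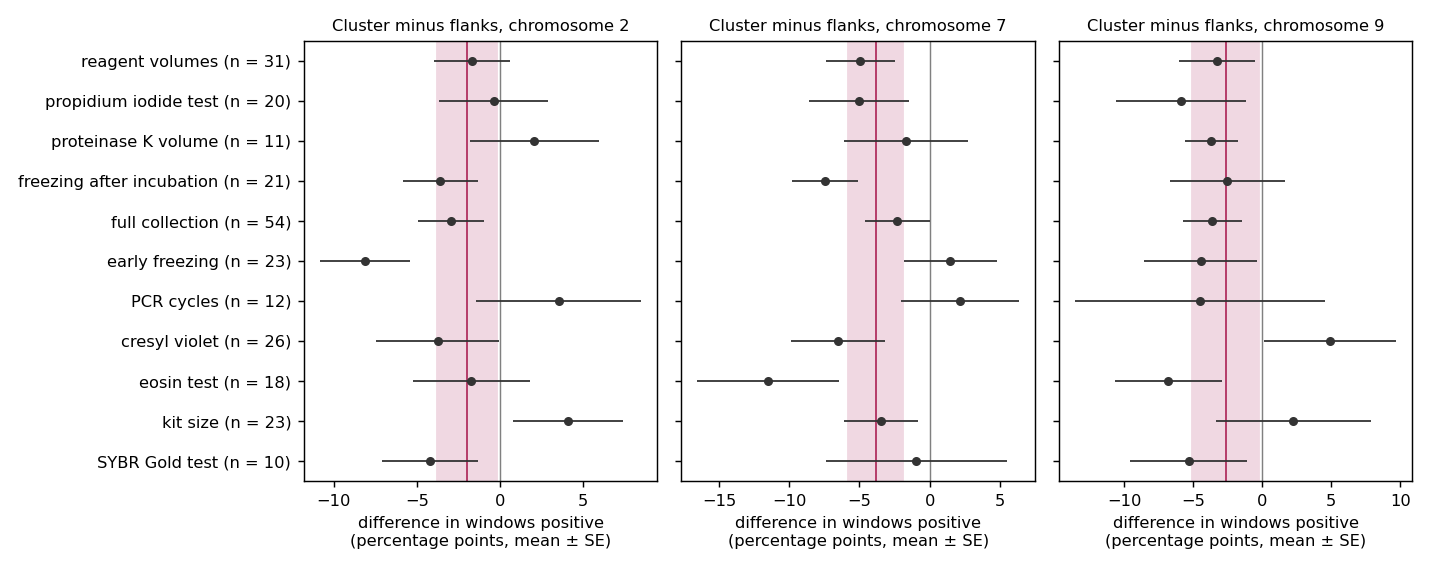
Mean difference in windows positive, cluster minus flanks, in percentage points ± SE over libraries for each of the 11 experiments, with the line and band giving the mean of all libraries and its 95% interval. Most means lie left of 0 in each panel (8, 9 and 9 of 11) and most error bars overlap the band.

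Detection can be split into how often a 1 Mb block was hit at all and how full it was when hit. Hit blocks of the chromosome 2 and chromosome 7 clusters were filled less, though neither difference passed within the lowest or the highest tercile of libraries by coverage. On chromosome 2, 29% of the windows of a hit block were positive against 32.7% in the flanks (−3.66 points, SE 1.18, adjusted p = 0.00672, lower in 109 libraries and higher in 70). On chromosome 7, with 5 usable blocks, the values were 30.3% and 35.2% (−4.87 points, SE 1.39, adjusted p = 0.0039, lower in 111 and higher in 73). On chromosome 9, with only 2 usable blocks, they were 30.0% and 33.2% (−3.19 points, adjusted p = 0.0768), and −4.40 points without the flank window positive in 245 libraries (adjusted p = 0.0263).

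The share of blocks hit gave no such common picture. It was 53.3% against 57.4% on chromosome 2 (−4.14 points, SE 1.88, adjusted p = 0.045, and 0.0577 without libraries of coverage under 5%) and 54.5% against 54.6% on chromosome 7 (−0.0402 points, adjusted p = 1). On chromosome 9 it was 55.4% against 60.6% (−5.22 points, adjusted p = 0.045), but −0.562 points (adjusted p = 0.999) without the over-detected flank window. These block values used only windows positive in at least 25 libraries, and they were not adjusted for GC content. Blocks with fewer than 20 such windows were left out, among them chr7:112600001-113600000 with 16. Filling could be compared in 183, 188 and 166 libraries on chromosomes 2, 7 and 9.

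Detection also varied along the clusters. Each cluster was tiled in blocks of 1 Mb, the last of only 5 windows on chromosome 7 and 15 on chromosome 9, and each block was set against the rest of its own cluster in the same libraries, a comparison chosen after window counts had been seen. In 4 of 15 blocks the difference passed the test. The same test on blocks of the flanks passed in 4 of 30, which is 13.3%, though all flank blocks span the full 1 Mb. The lowest block of all was the fourth of the chromosome 2 cluster, chr2:88000001-89000000, with 53 Olfr genes and no other protein-coding gene. It was positive in 13.9% ± 1.36 (SE over all libraries) of its windows, against 18.9% in the rest of the cluster (−4.98 points, SE 1.04, adjusted p = 0.0003), and lay lower in 140 libraries and higher in 49. The lowest flank block stood at 17%. The difference was negative in 10 of 11 experiments and −4.54 points after setting windows against their GC class (adjusted p = 0.0006). It was −5.09 points with windows under 40% repeated 31-mers only (adjusted p = 0.0003) and −4.91 points without the full collection (adjusted p = 0.0012).

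The first block of the chromosome 2 cluster stood 3.25 points above the rest at 20.5% (adjusted p = 0.0155), a call lost without the full collection (2.77 points, adjusted p = 0.107). On chromosome 7 the third block, with 39 Olfr genes and 10 other protein-coding genes, was positive in 15.4% of its windows, −3.33 points against the rest (adjusted p = 0.0081). The sixth block, with 26 Olfr genes and 6 others, lay 3.81 points above at 21.3% (adjusted p = 0.0102), but it was above the rest in only 93 libraries and 7 of 11 experiments and below in 114 libraries, so its mean rests on the libraries with large values. The third block was below the rest in 144 libraries and above in 63, and below in 9 of 11 experiments. Both kept their calls under the GC, repeat and full-collection settings. On chromosome 9 the 3 blocks lay between 17.9% and 19.1% and none passed.

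The most and least often detected single windows are given as a description. On chromosome 2 the most often detected windows were chr2:85200001-85240000 with Olfr988 and Olfr992 (61 libraries) and chr2:85840001-85880000 with Olfr1032 and Olfr1033 (60). The least often detected among windows positive in at least 25 libraries were chr2:88760001-88800000 with Olfr1211 and Olfr1212 (26) and chr2:88600001-88640000 with Olfr1200 and Olfr1201 (27), both inside the fourth block. On chromosome 7 the highest were chr7:114760001-114800000 with Ppfibp2 (66) and chr7:114560001-114600000 with Syt9, a synaptotagmin (65), which carry no Olfr gene. The lowest were chr7:113360001-113400000, with no annotated gene (25), and chr7:111640001-111680000 with Trim30d (30). On chromosome 9 the highest were chr9:37400001-37440000 with Spa17 and Siae (63) and chr9:37480001-37520000 with Olfr151 (59). The lowest were chr9:39240001-39280000 with Olfr954 and Olfr955 (32) and chr9:39280001-39320000 with Olfr44 and Olfr957 (33).

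Of the windows positive in at least 25 libraries, 35 on chromosome 2 (28.2%), 31 on chromosome 7 (21.5%) and 9 on chromosome 9 (13.8%) were positive in at most 39 libraries, against 11.3% of such autosomal windows. At the other end, 89, 113 and 56 windows of the clusters (71.2%, 72.9% and 86.2%) were positive in at least 40 libraries, against 84.7% of autosomal windows. At the low extreme, 1, 11 and 0 windows of the clusters were positive in fewer than 25 libraries, which is 0.8%, 7.10% and 0%, against 4.51% of autosomal windows. Windows that were never positive numbered 0, 2 and 0, against 3.52% of autosomal windows.

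The 11 rarely positive windows of chromosome 7 fell in 2 places. The larger group is adjacent, at chr7:113000001-113360000 around Gvin1, a gene of the very large interferon-inducible GTPase family, and were positive in 0 to 12 libraries. Between 90.2% and 100% of their 31-mers are repeated on the chromosome, and one of them consists of unsequenced bases over 94.0% of its length. The other two, at chr7:111400001-111480000, carry Trim34a, Trim5, Trim12a and Trim34b and were positive in 0 and 9 libraries, with 61.6% and 36.9% of their 31-mers repeated. Short stretches are shown as examples, each of 60 bases from the plus strand of mm9. The first 2 come from rarely positive windows and the last from the most often positive window of the cluster. They were picked for their copy number on the chromosome, over 1 for the first 2 and 1 for the last. That the first 2 recur and the last does not was thus fixed in advance.
chr7:113040061-113040120, window positive in 2 libraries: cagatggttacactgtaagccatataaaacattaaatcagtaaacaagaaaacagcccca
chr7:111400061-111400120, window positive in 0 libraries: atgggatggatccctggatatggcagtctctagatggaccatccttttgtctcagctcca
chr7:114760001-114760060, window positive in 66 libraries: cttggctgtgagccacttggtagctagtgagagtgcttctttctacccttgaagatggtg
The first stretch occurs at 2 places on chromosome 7, and the second copy, at chr7:113296477-113296536, lies in another window of the same gap that was positive in 1 library. The stretch from the Trim window occurs 17 times on the chromosome. Of the other 16 copies, 7 lie in windows positive in 0 to 8 libraries and 9 in windows positive in 28 to 53. The third stretch occurs once. A read that matches several places equally well cannot be assigned to one of them, and how the aligner's choices entered the calls was not tested. Over the 155 windows of the chromosome 7 cluster, the share of repeated 31-mers and the number of positive libraries had a Pearson correlation of −0.70 (Spearman −0.35), a description across neighbouring windows that share libraries. In the clusters of chromosomes 2 and 9 it was weaker, −0.261 and −0.099 (Spearman −0.105 and −0.054).

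Windows with an Olfr gene were compared with the other windows of the same cluster. On chromosome 2 they were positive in 17.7% and 18.8% of libraries (−1.15 points, adjusted p = 0.31), and on chromosome 9 in 18.4% and 19.1% (−0.73 points, adjusted p = 0.31). On chromosome 7 the 93 Olfr windows stood above the 62 others, at 17.9% against 15.7% (2.14 points, SE 0.663, adjusted p = 0.00459). That difference turned to −0.933 points (adjusted p = 0.297) when windows positive in fewer than 25 libraries were left out, all of which on chromosome 7 carry no Olfr gene. The same setting gave −2.67 points on chromosome 2 (adjusted p = 0.0992) and left chromosome 9 as it was. The 425 autosomal windows with an Olfr gene outside the clusters were positive in 19.5% of libraries, against 19.4% over all autosomal windows (0.101 points, SE 0.328, p = 0.76, sign-flip permutation test). Of those 425 windows 0 were never positive, against 3.52% of all autosomal windows, which lowers the autosomal value. The 2 windows of the Hbb genes, silent in stem cells, were positive in 45 and 43 libraries and the 11 windows of Trim genes in 0 to 52.

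Genes of olfactory neurons outside the clusters are given as a description, with no test. The windows of the starts of Omp, the olfactory marker protein, Lhx2 and Ebf1, a transcription factor, were positive in 50 libraries each, against a median of 49 over autosomal windows. Gnal and Adcy3, the G protein subunit and the cyclase of odour transduction, had 55 and 59. The windows of Rtp1 and Rtp2, which carry receptors to the cell surface, had 58 and 59, and that of Ldb1 had 63.

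Linkage was measured as D′, the normalized linkage disequilibrium of 2 windows over libraries, which is 0 for windows that segregate independently and 1 at the highest co-segregation their detection allows. No difference in linkage between the inside of a cluster and its flanks passed the test. Of the windows, 124, 144 and 65 passed the minimum of 25 libraries used for linkage. For pairs 80 kb to 2 Mb apart, mean D′ was 0.355 ± 0.0219 (jackknife SE over all libraries) in the chromosome 2 cluster, 0.344 ± 0.021 in that of chromosome 7 and 0.352 ± 0.0279 in that of chromosome 9. The flanks gave 0.348 and 0.314 on chromosome 2, 0.330 and 0.351 on chromosome 7, and 0.364 and 0.331 on chromosome 9 (left and right).

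Cluster minus flanks was 0.0245 on chromosome 2 (95% interval −0.0187 to 0.0676), 0.0035 on chromosome 7 (−0.0387 to 0.0457) and 0.0045 on chromosome 9 (−0.0544 to 0.0634). The adjusted p was 0.884 for each (sign-flip permutation test over jackknife pseudovalues). The intervals reach 0.0676 above and 0.0544 below the flanks at their widest, and on chromosome 2 no further than 0.0187 below. At 200 kb, mean D′ was 0.447 ± 0.0207, 0.462 ± 0.0189 and 0.474 ± 0.0228 in the clusters of chromosomes 2, 7 and 9, below both flanks of each (0.457 and 0.485, 0.495 and 0.503, 0.497 and 0.490, left and right). At 2 Mb the order was the other way, and mean D′ was 0.299 ± 0.0278, 0.294 ± 0.0275 and 0.303 ± 0.0431 in the clusters of chromosomes 2, 7 and 9, against 0.197 to 0.298 in the flanks. On chromosome 9 that order did not hold at 1960 kb, where the cluster had 0.286 and its left flank 0.296. No distance was tested on its own.

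**Figure D3:**
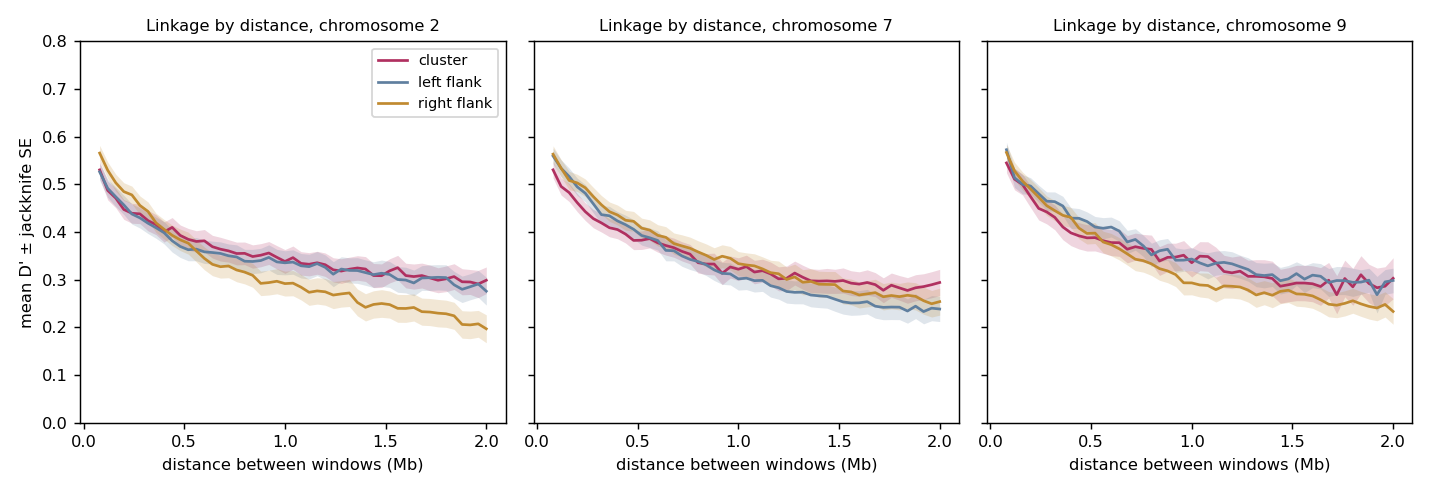
Mean D′ against the distance between windows in Mb, from 80 kb to 2 Mb, for each cluster and its left and right flank, with bands of 1 jackknife SE. At 2 Mb the chromosome 2 cluster (0.299) lies above its right flank (0.197), and the chromosome 9 cluster (0.303) lies beside its left flank (0.298).

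The pairs with the highest D′ at 1 to 4 Mb are given as a description, since they were picked for their height. On chromosome 2 they were the windows of Olfr1095 and of Olfr1151 and Olfr1152, 1 Mb apart (D′ 0.641 ± 0.0849, jackknife SE, 30 libraries with both), and those of Olfr1211 and Olfr1212 and of Olfr1260 and Olfr1261 (0.626 ± 0.11, 18 libraries). On chromosome 7 a window without genes at chr7:113360001-113400000 paired with that of Ppfibp2 at 1.44 Mb (0.738 ± 0.107, 20 libraries), and chr7:112960001-113000000 with that of Syt9 at 1.64 Mb (0.716 ± 0.0946, 25 libraries). On chromosome 9 the windows of Olfr889 and Olfr890 and of Olfr44 and Olfr957 paired at 1.36 Mb (0.572 ± 0.103, 22 libraries), as did those of Olfr887 and Olfr888 and of Olfr954 and Olfr955 (0.526 ± 0.106, 20 libraries). Most of these pairs include a window positive in under 40 libraries.

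No edge of a cluster passed the test for a limit of linkage. At each edge, D′ of pairs that span it was set against pairs inside and outside at the same distances, within 1 Mb. Across the left edge of the chromosome 7 cluster, between Stim1 and Olfr543, the spanning pairs had 0.371 ± 0.0353, against 0.410 inside and 0.399 outside (−0.0331, SE 0.0255, adjusted p = 0.655). At the right edge of chromosome 7 the difference was −0.0242 (adjusted p = 0.931), and at the left and right edges of chromosome 9 it was 0.00053 and −0.0103 (adjusted p = 0.931 for both). On chromosome 2 the differences were positive, 0.0306 at the left edge and 0.0544 at the right (SE 0.0218 and 0.0271, adjusted p = 0.434 for both). With the edges placed at the first and last Olfr gene, counting those in the near flank, they were 0.0283 and 0.0043. The right edge then lies at position 90241831, the end of Olfr1274-ps in the flank. Of all 56794 autosomal positions, 81.4% and 94.8% had a lower value than these 2 edges at the chosen limits, and 16.4% had a lower value than the left edge of chromosome 7.

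Insulation boundaries, local minima of mean D′ in a 400 kb square along the chromosome, lay 40 to 360 kb from the edges. The closest was 40 kb inside the left edge of the chromosome 7 cluster, at position 109640000. At the chosen limits it was the only 1 of 6 edges with a boundary within 80 kb, while 21.2% of autosomal windows lie that close. The boundary nearest the right edge of chromosome 2, at position 90240000, lay beside the end of the flank's Olfr genes at 90241831. On the right of chromosome 7 these positions were 116120000 and 116037934. The clusters held 7, 6 and 4 boundaries, or 1.4, 0.968 and 1.54 per Mb on chromosomes 2, 7 and 9, against 1.06 per Mb over the autosomes. The 6 flanks held 0.8 to 1.4 per Mb. These counts were not tested.

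**Figure D4:**
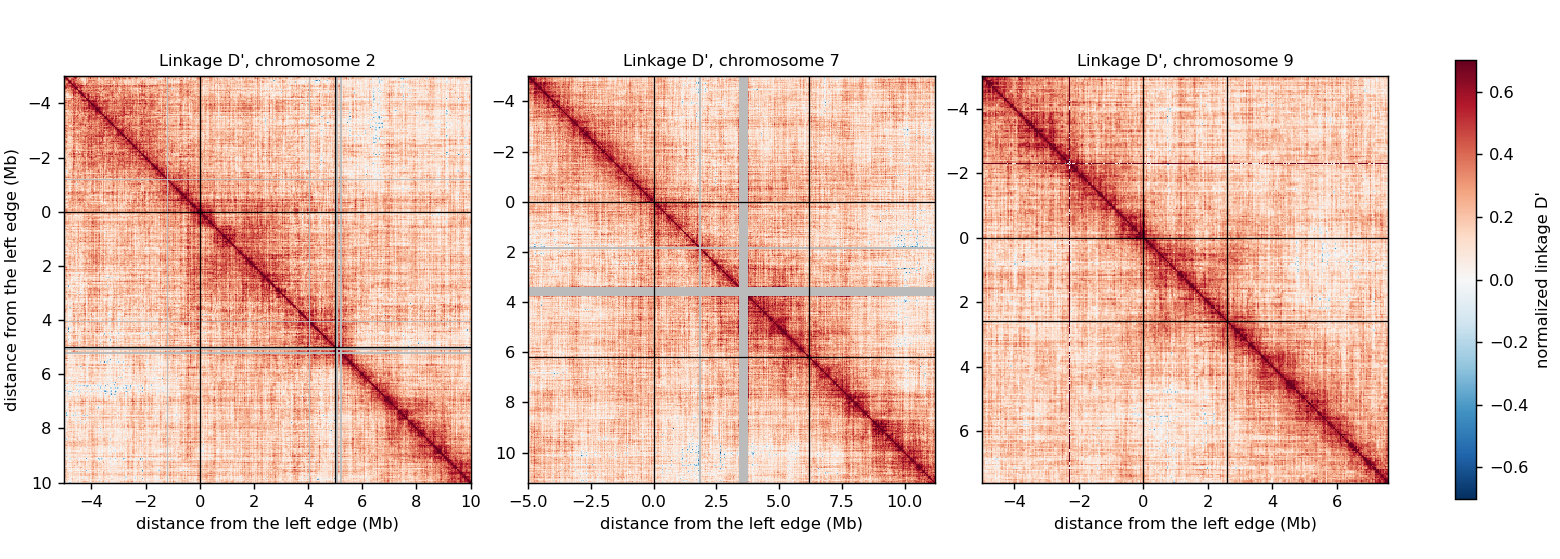
Maps of D′ between all 40 kb windows of each cluster and the 5 Mb on either side, with distance from the left edge in Mb on both axes, black lines at the edges and grey where a window was positive in fewer than 25 libraries. Linkage falls away from the diagonal inside and outside the clusters alike, and the grey band on chromosome 7 is the gap around Gvin1.

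Clusters of different chromosomes were linked no more than their flanks beyond the error. Mean D′ between the chromosome 2 and chromosome 7 clusters was 0.0011 ± 0.0485 (jackknife SE over all libraries), between those of chromosomes 2 and 9 it was 0.0429 ± 0.0417, and between those of chromosomes 7 and 9 it was 0.0208 ± 0.0429. Pairs of flanks of the same chromosomes gave −0.0315, 0.0356 and 0.0237. The differences were 0.0325 (95% interval −0.0464 to 0.111), 0.0073 (−0.0711 to 0.0857) and −0.0029 (−0.0818 to 0.076), each with an adjusted p of 0.89. Among all pairs of blocks of the same sizes on the same chromosomes, 46.5%, 68.3% and 63.0% had a lower mean D′. Counted by library, 5, 7 and 4 libraries held over 50% of both clusters of a pair, and 7, 19 and 12 libraries held no window of either. The products of the clusters' own shares give 2.36, 3.94 and 2.95 for the first count and 10.1, 17.1 and 12 for the second, a description that does not allow for the range of coverage over libraries.

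**Figure D5:**
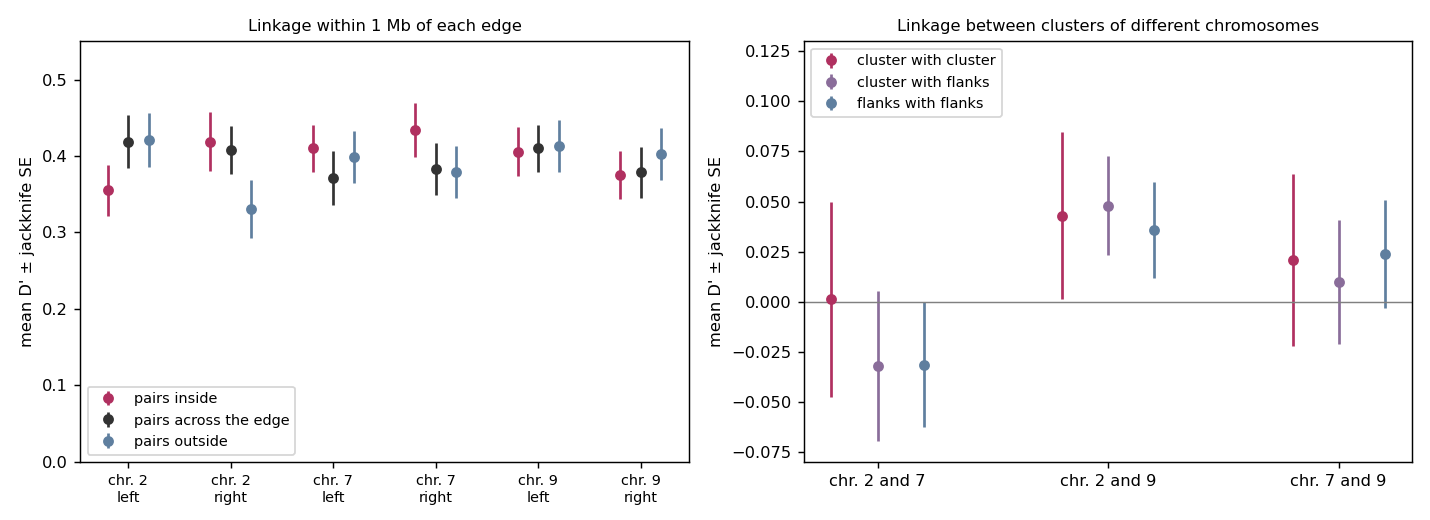
The left panel gives mean D′ ± jackknife SE of pairs inside, across and outside each of the 6 edges, and the right panel gives mean D′ ± jackknife SE between 2 clusters, between a cluster and the flanks of the other, and between flanks. In both panels the error bars of the values set side by side overlap, except that on the right edge of chromosome 2 the bar of the pairs outside (0.331) lies below those of the pairs across (0.408) and inside (0.419).

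Single pairs of windows between clusters reached higher values, again picked for their height. The highest, 0.485 ± 0.118, joined chr2:88960001-89000000, with Olfr1222 and Olfr1223, and chr9:39920001-39960000, with Olfr985 and Tmem225, which were positive in 27 and 52 libraries and together in 16. The same window of chromosome 2 gave 0.388 ± 0.12 with the window of Olfr982, Olfr983 and Olfr984. Between chromosomes 2 and 7 the highest pair, Olfr1129 with a window without genes, had 0.333 ± 0.126, and between chromosomes 7 and 9, Olfr506 with Olfr944, 0.337 ± 0.0946.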

How the data were processed

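The authors aligned reads to mm9 with Bowtie2 (version 2.1 in the submitters' processing notes), removed duplicates with Samtools and called windows of 40 kb with GAMtools at a minimum of 4 reads. The deposited table has a 0 or 1 for each window and each of 249 libraries that passed the authors' quality control. All columns matched a label. The clusters, gene lists and tests were chosen with earlier results of these data known.

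Detection was the percent of windows positive in a library, all windows included. Cluster minus flanks (5 Mb on either side) was tested over libraries with two-sided sign-flip permutation tests (100000 resamples). D′, insulation and block values used windows positive in at least 25 libraries, with delete-one jackknife errors and sign-flip tests over pseudovalues. Insulation boundaries needed a prominence of 0.5 SD. Benjamini-Hochberg adjustment was made within each family of comparisons. Nothing in the labels says that libraries came from separate cultures, so p-values measure the spread between libraries only. Replicate numbers only name libraries. Groups follow the sample titles. The protocol text differs from them for the libraries titled unstained in the sybrgold-test, for which it describes staining with SYBR Gold, and for the proteinase K volumes of the pk-volume-titration. GC content and repeated 31-mers came from the mm9 genome and genes from GENCODE for NCBIM37, whose assembled chromosome lengths equal those of the table. The genes and windows named are the first and last Olfr gene of each cluster, known loci inside, the genes nearest to the edges, the 2 most and 2 least detected windows of each cluster, the 2 highest pairs of each kind and a list of olfactory neuron genes. Others were named after their values were seen. Statistics were computed with Python, NumPy and SciPy and tested on simulated data.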

Additional observations from a re-analysis of the deposited data

Results flagged for a closer look

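In 4 of 27 combinations of a cluster and 1 of the 9 protocol groups of 4 to 10 libraries, a single library stood apart from the rest of its group in cluster minus flank detection. None of these groups held such a library when the windows of the 3 clusters and of their flanks were pooled. Chance alone marks about 1 in 20 such combinations where values are normally distributed, which was not checked here. On chromosome 2, replicate 1 of the unstained libraries of sybrgold-test had −25.6 percentage points, with the other libraries between −10.4 and 6.4. On chromosome 7, replicate 3 of the unstained libraries of cresyl-violet-test had −40.6 points, with the others between −6.18 and 23.8. On chromosome 9, replicate 3 of the group with 2 µl of proteinase K had −16.4 points, with the others between −5.6 and 0.738, and replicate 4 of the group with 20 PCR cycles had 6.34 points, with the others between −5.2 and −3.6.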

How the results depend on the processing

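Of 359 alternative values for 32 results, 288 kept their direction and their side of the threshold. The GC setting gave 0.149 points on chromosome 2, −1.91 on chromosome 7 and −0.0076 on chromosome 9 for detection against flanks. Leaving out 1 experiment at a time gave −2.59 to −1.35 points on chromosome 2, −4.40 to −3.26 on chromosome 7 and −3.55 to −2.34 on chromosome 9. The mean of experiment means gave −1.51 on chromosome 2 (adjusted p = 0.197). Without windows positive in over 100 libraries, an alternative chosen after seeing the data like those on repeats, coverage terciles and blocks within clusters, the chromosome 2 difference stayed at −1.97 (adjusted p = 0.0506, since the adjustment runs over all 3 clusters) and that of chromosome 9 was −2.35. That setting also gave −0.562 for blocks hit and −4.40 for filling on chromosome 9, and blocks of 0.4 Mb gave −4.13 for filling there (adjusted p = 0.0151). Without libraries of coverage under 5%, blocks hit stood at −4.18 on chromosome 2 and −5.08 on chromosome 9, both with adjusted p = 0.0577. Within the lowest, middle and highest tercile of libraries by coverage (83 each), blocks hit were −2.65, −1.93 and −7.83 on chromosome 2, −6.39, −7.71 and −1.57 on chromosome 9 and, in the highest tercile, 2.29 on chromosome 7, none of them past the threshold. Filling was −2.96 and −2.92 in the lowest and highest tercile on chromosome 2, and −5.75 and −2.36 on chromosome 7, also short of it, with fewer libraries in each. In the middle tercile it passed, at −5.15 on chromosome 2 (adjusted p = 0.0428) and −7.03 on chromosome 7 (adjusted p = 0.029). The first block of the chromosome 2 cluster gave 2.77 without the full collection, and Olfr windows of chromosome 7 gave −0.933 with windows positive in at least 25 libraries.

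No linkage result passed the threshold under any of its 222 alternatives (lowest adjusted p = 0.0688, 10 with an unadjusted p under 0.05), and 33 changed sign. With the co-segregation frequency, in percent and not normalized for detection, internal linkage minus flanks was −0.845, −1.59 and −1.45 on chromosomes 2, 7 and 9, the right edge of chromosome 9 gave 0.294, and the clusters of chromosomes 2 and 7 and of 2 and 9 gave −0.682 and −0.962. Internal linkage at 200 kb to 1 Mb gave −0.016 on chromosome 7 and −0.0066 on chromosome 9, and windows with few repeats gave −0.0036 on chromosome 7. Without 1 experiment it ran from 0.0144 to 0.033 on chromosome 2, −0.0047 to 0.0122 on chromosome 7 and −0.0116 to 0.0296 on chromosome 9. Across the left edge of chromosome 9 it ran from −0.0169 to 0.015, with −0.0034 from pointwise mutual information and −0.0356 for an edge at the first Olfr gene, and across its right edge from −0.0247 to 0.0071. Between clusters it ran from −0.0226 to 0.0207 for chromosomes 2 and 9 and −0.024 to 0.0165 for 7 and 9. Against pairs of a cluster with flanks these gave −0.0051 and 0.0111, mutual information gave 0.0052 for 7 and 9, and without libraries of coverage of 25% or more, chromosomes 2 and 7 gave −0.0097 and 7 and 9 gave 0.0176. The causes were not tested. No paired analysis was possible because replicate numbers only name libraries. The arm contrasts stayed at 0 calls in all their alternatives, including each library left out of arms of 5 or fewer. The jackknife SE of the main D′ differences ran from 0.0215 to 0.0403, so differences of a few hundredths were not detectable.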
